A study of Homo sapiens with 41 samples.

Results

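PLK2, PLK3, SGK1, SIK1, PIM1 and PIM3 are genes of protein kinases whose transcripts respond to serum and other growth signals. These 6 genes were taken by name from a table of 58721 genes, measured in T98G, a human glioblastoma cell line that leaves the cell cycle reversibly when serum is withdrawn. All T98G cells were starved of serum for 72 h and then given medium with 20% fetal calf serum, and RNA was taken before serum (0 min) and at 10 min intervals up to 400 min. Total RNA without rRNA was sequenced in 41 libraries, each from a separately seeded culture taken at its own time, so there are no replicates, and the serum-starved state is represented by the 0 min library alone. All 6 genes passed the filter on low counts, as did 21629 genes in all. Errors are standard errors from the spread of the libraries about a smooth curve of time, and a difference was called at an edgeR adjusted p below 0.01.

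Most kinases are switched on by phosphorylation of a protein that is already there. These kinases are also controlled through the amount of their transcript, which is short-lived in many cells and rises soon after a growth signal. The polo-like kinases PLK2 and PLK3 act in centriole duplication and stress responses rather than in mitosis, where PLK1 acts. SGK1, the serum- and glucocorticoid-regulated kinase, is an AGC kinase activated by PDK1 and mTORC2, and it phosphorylates the ubiquitin ligase NEDD4L. SIK1, a salt-inducible kinase, is activated by LKB1 and keeps the CREB coactivators of the CRTC family and class IIa histone deacetylases out of the nucleus. PIM1 and PIM3 need no activating phosphorylation, so that their amount sets their activity, and they phosphorylate the cell death factor BAD and the cell cycle inhibitor p27.

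The genes lie on 5 chromosomes (GRCh38). PLK2 (ENSG00000145632.14) lies at chr5:58453982-58460139 on the minus strand, PLK3 (ENSG00000173846.12) at chr1:44800377-44805990 on the plus strand, and SGK1 (ENSG00000118515.11) at chr6:134169248-134318112 on the minus strand. SIK1 (ENSG00000142178.8) lies at chr21:43414483-43427131 on the minus strand, PIM1 (ENSG00000137193.13) at chr6:37170152-37175428 on the plus strand, and PIM3 (ENSG00000198355.4) at chr22:49960768-49964072 on the plus strand. SGK1 spans 149 kb through distal starts, whereas the other genes span 3.31 to 12.6 kb. The 250 bases before the RefSeq start (GRCh38.p14) are shown for the gene with the strongest rise (SIK1), the most abundant transcript (PLK2), the RefSeq start of SGK1 nearest its 3′ end, and the fastest transient (PIM1). Capitals mark the TGACG half-site of the cAMP response element, to which CREB binds, and the TATA box core TATAA, each on either strand.
SIK1: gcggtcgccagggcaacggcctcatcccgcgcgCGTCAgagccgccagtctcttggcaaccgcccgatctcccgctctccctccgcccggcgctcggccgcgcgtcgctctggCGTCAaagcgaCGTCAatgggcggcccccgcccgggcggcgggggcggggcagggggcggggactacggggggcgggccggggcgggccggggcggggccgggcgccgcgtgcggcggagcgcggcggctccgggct
PLK2: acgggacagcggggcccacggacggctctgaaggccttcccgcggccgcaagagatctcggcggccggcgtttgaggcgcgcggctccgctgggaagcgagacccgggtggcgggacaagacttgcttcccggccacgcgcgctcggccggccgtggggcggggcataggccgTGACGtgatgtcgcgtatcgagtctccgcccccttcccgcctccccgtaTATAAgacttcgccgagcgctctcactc
SGK1: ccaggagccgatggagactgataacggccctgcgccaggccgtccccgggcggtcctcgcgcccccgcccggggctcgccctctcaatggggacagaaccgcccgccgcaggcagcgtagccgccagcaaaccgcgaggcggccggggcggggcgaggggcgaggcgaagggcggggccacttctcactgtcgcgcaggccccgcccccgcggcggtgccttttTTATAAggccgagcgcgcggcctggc
PIM1: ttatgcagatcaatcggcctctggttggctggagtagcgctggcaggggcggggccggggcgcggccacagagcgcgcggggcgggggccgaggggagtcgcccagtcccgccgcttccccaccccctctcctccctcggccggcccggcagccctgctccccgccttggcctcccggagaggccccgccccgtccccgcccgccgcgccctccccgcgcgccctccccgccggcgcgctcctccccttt

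The windows are chr21:43427132-43427381 (minus strand) for SIK1, chr5:58460087-58460336 (minus strand) for PLK2, chr6:134174867-134175116 (minus strand) for SGK1 and chr6:37169902-37170151 (plus strand) for PIM1. The SIK1 window held 3 half-sites, whose first bases lie 217, 137 and 126 bases before the start, and the PLK2 window held 1, at 77 bases. Of the 35114 human windows of this length, 21.2% held at least 1 half-site. TATAA began 28 bases before the start of PLK2 and 25 bases before that of SGK1, where it overlaps its own match on the other strand, and 18.9% of all windows held it. The PLK3 and PIM3 windows held neither motif. No window of the 6 genes held the full response element TGACGTCA, the AP-1 site TGANTCA, the E-box CACGTG or a CArG box, which 1.65%, 6.57%, 6.35% and 1.16% of all windows held. The GC box GGGCGG was present in all 4 printed windows and in 42.6% of all windows. The counts are per gene, so which of the 3 RefSeq starts of SGK1 was used was not analysed here.

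Libraries held 18206982 to 64948114 counts, with a median of 41773419, and size factors ran from 0.447 to 1.60. The libraries at 20, 90, 250 and 300 min lay farthest from the smooth curves of the 14131 genes with a mean normalised read count of at least 50. Mesenchymal and glioblastoma markers were abundant, with a median normalised read count of 50281 for VIM and 135288 for FN1, and 6 of 7 genes of that list had a median of at least 100, NES being the exception at 37.4. Of 8 astrocyte and oligodendrocyte genes, 7 had a median under 5, with SOX10, OLIG1 and AQP4 at a median of 0 and GFAP at 1.48. OLIG2 was the exception at 33.6. PTPRC, CD3E, CDH1, CDH5 and RBFOX3 had medians of at most 3.16, whereas CD68, KRT18, TUBB3 and MAP2 of the same lists were abundant in every library. The medians of SYP (48.6), VWF (18.1), PECAM1 (11.9), EPCAM (11.5) and CD14 (3.40) lay between. In bulk RNA, a change in the number of cells and a change in RNA per cell cannot be told apart.

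All 6 transcripts were higher at 60 min than at 0 min, and also at 120 min. At 30 min 5 of them were higher, PIM3 being the exception, and at 240 min again 5, PIM1 being the exception. At 400 min the group had divided. PLK2, PLK3, SGK1 and SIK1 were still higher than at 0 min, PIM1 was lower, and PIM3 was not called in either direction. Of all genes tested, the share called higher than at 0 min was 1.71%, 5.15%, 13.6%, 21.6% and 24.2% at 30, 60, 120, 240 and 400 min. The share called lower was 0.342%, 1.23%, 6.75%, 18.5% and 22.4% at these times, and no member other than PIM1 at 400 min was among those genes. Between neighbouring times, 5 members were higher at 60 than at 30 min, PLK2 being the exception, as were 4.75% of all genes (3.23% were lower). With spike-in size factors this step of PIM3 was not called (0.52, adjusted p = 0.0188). PLK2, SGK1 and SIK1 were higher at 120 than at 60 min (11.1% of all genes), and PIM1 was lower (5.03%). At 240 min 5 members, all but PLK2, were lower than at 120 min (18.1% of all genes). PIM1, PIM3, PLK3 and SGK1 were lower at 400 than at 240 min (14.5%). Over the whole course, 75.5% of tested genes and all 6 kinases changed at an edgeR adjusted p below 0.01. The Ljung–Box test for autocorrelation called 60.9% of genes and also all 6 kinases. The genes are known for their response to serum, so these counts describe the group and do not set it apart.

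**Figure D1:**
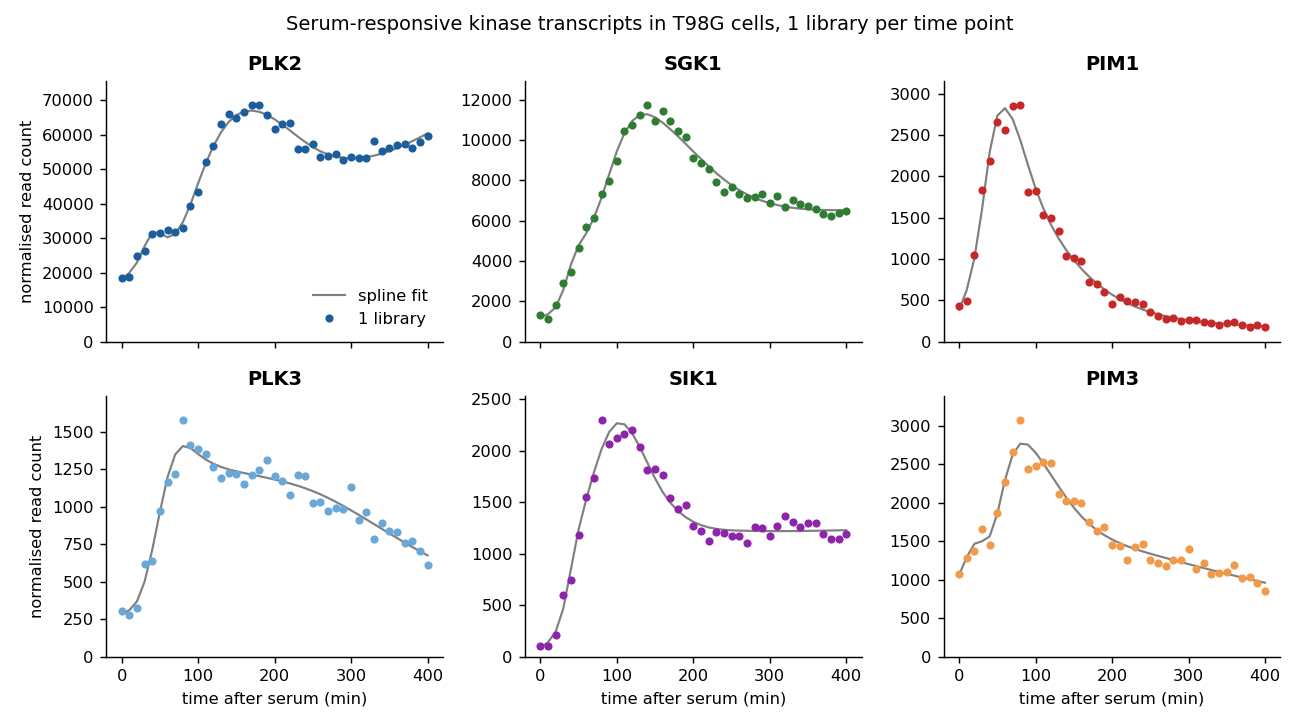
Normalised read count (vertical axis, linear from 0) against minutes after serum for each of the 6 kinase transcripts. Points are single libraries and grey lines the fitted spline. PIM1 reached 2865 and returned below its start, whereas PLK2 stayed at 52739 or more after its maximum.

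The starting levels differed widely. Per kb of exon over all annotated transcripts, the normalised read count at 0 min was 3978 for PLK2, 489 for PIM3, 142 for PIM1, 134 for SGK1, 91.1 for PLK3 and 20.5 for SIK1. PIM1 and SGK1 changed places when the length of the canonical transcript was used instead, with 160 for PIM1 and 410 for SGK1. At 400 min the order was PLK2 (12804), SGK1 (650), PIM3 (388), SIK1 (230), PLK3 (185) and PIM1 (58.5). PIM1 thus passed from the third place to the last, and PLK2 held the first place at both ends. SIK1 and PLK3 also changed places with the canonical length (263 for PLK3 and 252 for SIK1).

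SIK1 rose most. At 0, 10, 20 and 30 min its normalised read count was 107, 101, 215 and 601. It passed 1178 at 50 min and reached its highest value, 2299, at 80 min, 22.1-fold over the mean of 0 and 10 min. All 39 libraries from 20 min onward were above both of the first libraries. The fitted log2 change from 0 min was 2.39 ± 0.21 at 30 min, 4.10 ± 0.18 at 60 min and 4.60 ± 0.18 at 120 min (SE; edgeR adjusted p = 1.86e-11, 2.66e-21 and 1.94e-23).

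SIK1 then lost part of its rise and kept the rest. Its count stayed between 2031 and 2202 from 90 to 130 min, fell to 1128 at 220 min and then remained between 1105 and 1369 in every library to 400 min. The step between 120 and 240 min was −0.82 ± 0.07 in log2, while that between 240 and 400 min was 0.00 ± 0.08 (adjusted p = 9.36e-14 and 0.976). At 400 min SIK1 was at 1196, or 52.0% of its maximum, and its log2 change from 0 min was 3.78 ± 0.19 (adjusted p = 8.45e-21). The late plateau therefore stood 11.5-fold over the starting level.

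Reads of SIK1 may have been shared with a second locus. RefSeq lists a copy of SIK1 on chromosome 21, from 6111131 to 6123778, under the locus name LOC102724428, and its sequence was identical to that of SIK1 at 12637 of 12649 aligned bases and at all 300 bases around the start. The count table has an ID without a symbol in the annotation used here, ENSG00000275993.2, whose count was 0.893 to 0.994 of that of SIK1 in every library, with a median of 0.971. The authors counted a read that maps to several places for each gene, so the values of SIK1 may hold reads of both copies, and the share of each copy cannot be told apart from these counts.

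SGK1 rose more slowly and later. It was at 1331 and 1103 at 0 and 10 min, and at 20, 40, 60 and 100 min it was at 1827, 3456, 5695 and 8956. The highest value was 11758 at 140 min, 9.66-fold over the mean of 0 and 10 min, and all libraries from 20 min onward were above both of the first libraries. The log2 change from 0 min was 1.07 ± 0.10 at 30 min, 2.14 ± 0.10 at 60 min and 3.16 ± 0.10 at 120 min (adjusted p = 9.25e-11, 2.82e-22 and 1.84e-28). SGK1 gained about as much between 60 and 120 min (1.03 ± 0.06) as between 30 and 60 min (1.07 ± 0.06). The steps between 120 and 240 min (−0.44 ± 0.05) and between 240 and 400 min (−0.30 ± 0.06) were downward (adjusted p = 2.08e-11 and 2.24e-05), and the second was not called with spike-in size factors (−0.30, adjusted p = 0.15). Between 350 and 400 min it held 6261 to 6720, and at 400 min it was at 55.1% of its maximum.

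The rise of PLK2 came in 2 parts. PLK2 was the most abundant of the 6 transcripts already in starved cells, with 18487 at 0 min and 18631 at 10 min. It reached 31356 at 40 min and then held 31409, 32249, 31801 and 32942 at 50, 60, 70 and 80 min. A second rise followed, to 39351, 52110, 66040 and 68707 at 90, 110, 140 and 180 min. The fitted step between 30 and 60 min was 0.13 ± 0.04 and was not called (adjusted p = 0.0365), whereas that between 60 and 120 min was 0.91 ± 0.04 (adjusted p = 2.00e-21). The first step did pass the threshold with evenly spaced knots (0.37), with 5 degrees of freedom (0.14), and without the 20 min library or the 4 farthest libraries (0.22 each). The early rise and the level stretch after it depend on the normalization. With spike-in size factors PLK2 was not called at 30 or 60 min against 0 min (0.49 and 0.50, edgeR adjusted p = 0.624 and 0.256). Its count divided by these factors was 32617 at 40 min and 22842 at 50 min.

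PLK2 stayed high. From 230 to 400 min it held 52739 to 59500, and the curve at 400 min was 1.74 ± 0.07 above 0 min in log2, against 1.68 ± 0.06 at 240 min (adjusted p = 6.74e-26 and 3.01e-26). The step between 240 and 400 min was 0.06 ± 0.04 (adjusted p = 0.223). PLK2 was the only member at over 80% of its maximum at the end (86.6%), although its rise of 3.70-fold was smaller than that of every other member except PIM3.

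PLK3 rose with SIK1 and fell late. At 0, 10 and 20 min it was at 303, 277 and 322, and at 30 and 50 min at 617 and 969. Its highest value was 1580, at 80 min, 5.45-fold over the start. From 130 to 240 min it lay between 1076 and 1312. The step between 60 and 120 min was 0.10 ± 0.08 and that between 120 and 240 min −0.20 ± 0.06, of which the second was called (adjusted p = 0.426 and 0.00633). The first was called with 5 degrees of freedom (0.24). The second was lost with spike-in size factors (−0.16, adjusted p = 0.332) and with evenly spaced knots (−0.22, adjusted p = 0.0158). The step between 240 and 400 min was −0.73 ± 0.08 (adjusted p = 8.86e-11), and 615 remained at 400 min. That value was 38.9% of the maximum and still 1.25 ± 0.14 in log2 above 0 min (adjusted p = 9.71e-11).

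PIM1 was the earliest and the most transient. Its count was 432 at 0 min and 498 at 10 min, and already 1044 at 20 min and 1828 at 30 min. It held 2561 to 2865 in the 4 libraries from 50 to 80 min, with the maximum of 2865 at 80 min, and was at 1813 at 90 min. At 140, 190 and 270 min 1037, 601 and 277 remained, and at 400 min 177, which is 6.19% of the maximum. The log2 change from 0 min at 30, 60, 120 and 240 min was 2.04 ± 0.18, 2.86 ± 0.16, 1.87 ± 0.15 and 0.00 ± 0.14 (adjusted p = 1.08e-11, 8.06e-18, 4.25e-13 and 0.994).

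At 400 min PIM1 had a log2 change of −1.06 ± 0.16 from 0 min (adjusted p = 4.32e-07). All 6 libraries from 350 to 400 min, at 177 to 238, were below both of the first libraries. The fitted value rests on the 0 min library, since the curve fitted without it is extrapolated to 0 min and gave 0.04 (adjusted p = 0.966). PIM1 fell by an apparent half-life of 66.1 min (64.7 to 67.0 on leaving out each library in turn), fitted to the 18 libraries after the maximum that held at least 10% of it. An apparent half-life of total RNA combines transcription and decay and is not a decay rate.

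PIM3, a close relative of PIM1 that is expressed in many tissues, rose less. At 0 and 10 min it was at 1075 and 1281, and at 40, 60 and 80 min at 1452, 2273 and 3077, the last 2.61-fold over the start. Its log2 change at 30 min, 0.50 ± 0.12, just missed the threshold (adjusted p = 0.0111), and the changes at 60 and 120 min were 1.11 ± 0.11 and 1.15 ± 0.11 (adjusted p = 7.80e-11 and 6.35e-12). At 240 min 0.37 ± 0.10 remained (adjusted p = 0.00257), but this call was lost without the 0 min library (0.50, adjusted p = 0.298) and with spike-in size factors (0.40, adjusted p = 0.0864). At 400 min PIM3 was at 853, and its change of −0.14 ± 0.11 did not pass the threshold (adjusted p = 0.278). The apparent half-life of PIM3 after its maximum was 222 min, or 144 min over the first 100 min alone.

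**Figure D2:**
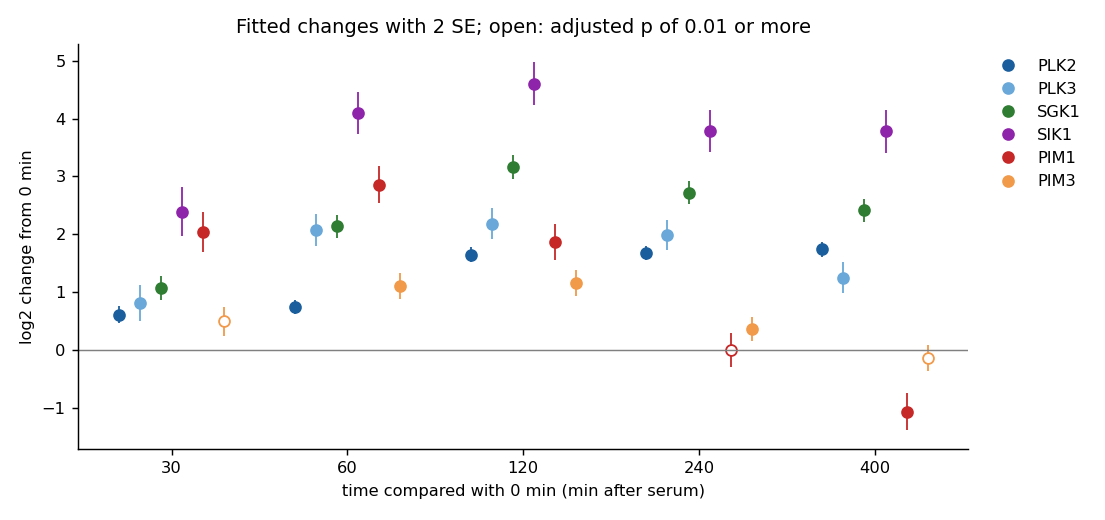
Fitted log2 change from 0 min (vertical axis) of each kinase transcript at 30, 60, 120, 240 and 400 min (horizontal axis, evenly spaced categories), with bars of 2 standard errors. Filled points have an edgeR adjusted p below 0.01 and open points do not. PIM1 is highest at 60 min (2.86) and below 0 at 400 min (−1.06), whereas SIK1, SGK1, PLK2 and PLK3 stay above 0 throughout.

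The members followed an order in time. The running mean of 3 libraries reached the middle of its rise (its midpoint) 28.7 min after serum for PIM1, 47.3 min for PLK3, 49.1 min for SIK1, 52.1 min for PIM3, 68.9 min for SGK1 and 97.4 min for PLK2. PLK3, SIK1 and PIM3 lie within 1 sampling interval of 10 min and are not separated by these times. PIM1, SGK1 and PLK2 each lie over 10 min from their neighbours in the order. With spike-in size factors SGK1 moved to 80.4 min, and no other midpoint moved by 10 min or more under the alternatives tried.

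The time above the midpoint separated the members further. It was 81.7 min for PIM1, 105 min for PIM3 and 284 min for PLK3. SGK1, SIK1 and PLK2 did not drop below their midpoints before the last library, so they were above them for at least 331, 351 and 303 min. For PIM3 the time was 73.2 min without the running mean, shorter than that of PIM1.

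The maxima of PLK3, SIK1, PIM1 and PIM3 all fell in the 80 min library, as did those of 1.59% of the 14131 genes with a mean normalised read count of at least 50. The next library, at 90 min, was among those farthest from the curves. Between these libraries PIM1 fell by 36.7%, PIM3 fell by 20.9%, PLK3 fell by 10.5% and SIK1 fell by 10.4%. PLK2 was 19.5% higher and SGK1 8.83% higher at 90 min. The part of the 80 and 90 min libraries themselves in these maxima was not tested. The running means peaked at 70 min for PIM1, 80 min for PIM3, 90 min for PLK3, 110 min for SIK1, 150 min for SGK1 and 170 min for PLK2.

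**Figure D3:**
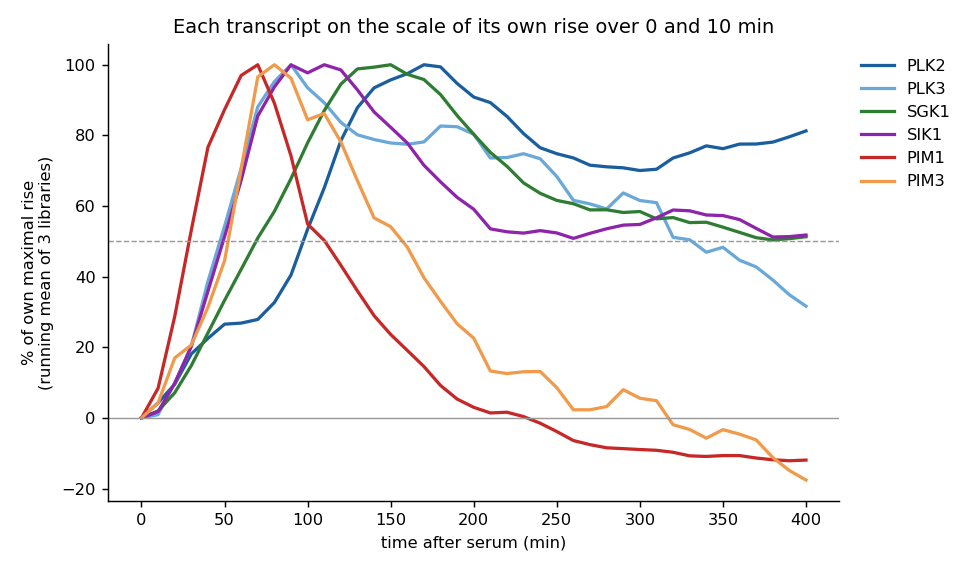
Running mean of 3 libraries, as a percentage of each transcript's own maximal rise over the mean of 0 and 10 min (vertical axis), against minutes after serum. The dashed line is the midpoint. PIM1 passes it first (28.7 min) and drops below it 81.7 min later, PLK2 passes it last (97.4 min), and SGK1, SIK1 and PLK2 end above it.

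Ratios of read counts within a library do not depend on its size factor. The ratio of PIM1 to PIM3 was 0.402, 0.759 and 1.50 at 0, 20 and 40 min, then 0.931, 0.594 and 0.309 at 80, 120 and 240 min, and it was 0.173 at its lowest, at 380 min. PIM1 reads thus exceeded PIM3 reads in the libraries from 30 to 70 min and in no other library. The ratio of PLK2 to PLK3 was 61.0, 77.2, 20.9, 53.1 and 96.8 at 0, 20, 80, 130 and 400 min. The ratio of SIK1 to SGK1 was 0.0803 at 0 min, its lowest, 0.313 at 80 min, its highest, and 0.131 at 220 min.

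**Figure D4:**
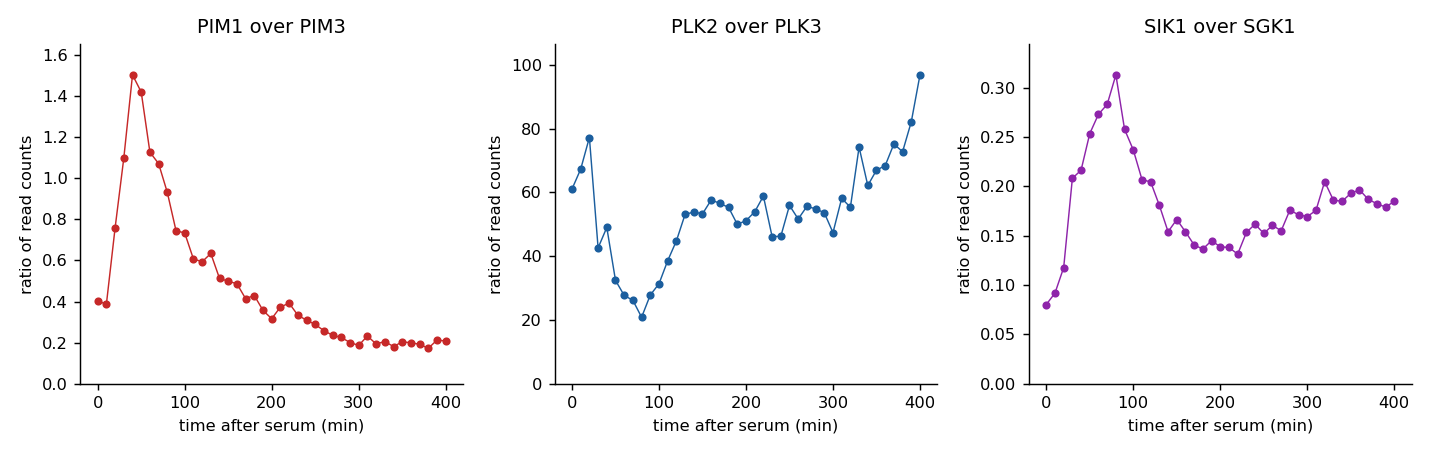
Ratio of read counts within each library (vertical axes, from 0) against minutes after serum, for PIM1 over PIM3, PLK2 over PLK3 and SIK1 over SGK1. The ratio of PIM1 to PIM3 peaks at 40 min (1.50), and those of PLK2 to PLK3 and SIK1 to SGK1 have their lowest (20.9) and highest (0.313) values at 80 min.

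The other members of the same kinase families were also examined. Of 9 listed paralogs, 7 were found by symbol and tested. None of the 7 was called at 30 min (1.71% of all genes were higher), 1 was higher at 60 min (5.15%), and 2 were lower at 400 min (22.4%). ENSG00000275993.2, the ID without a symbol whose counts follow those of SIK1, is not among these 7. Its fitted count was 79.1 at 0 min and 1474 at 60 min. The median log2 change of the list was 0.07 at 60 min and −0.46 at 400 min, against 0.01 and 0.00 for all genes tested. SIK2 was 0.33 higher at 60 min and had a change of −0.65 at 400 min. SIK3 was 0.45 higher at 120 min and 0.37 higher at 240 min. PLK1, the mitotic member, had a change of −0.63 at 400 min, with normalised read counts of 93.3 to 206 throughout. PIM2 (0.34 at 60 min, adjusted p = 0.354), SGK3 (−0.07, adjusted p = 0.886) and PLK4 (−0.31, adjusted p = 0.547) were not called at any of the 5 times. SGK2 had a median normalised read count of 3.39, so that a change would hardly have been detectable.

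**Figure D5:**
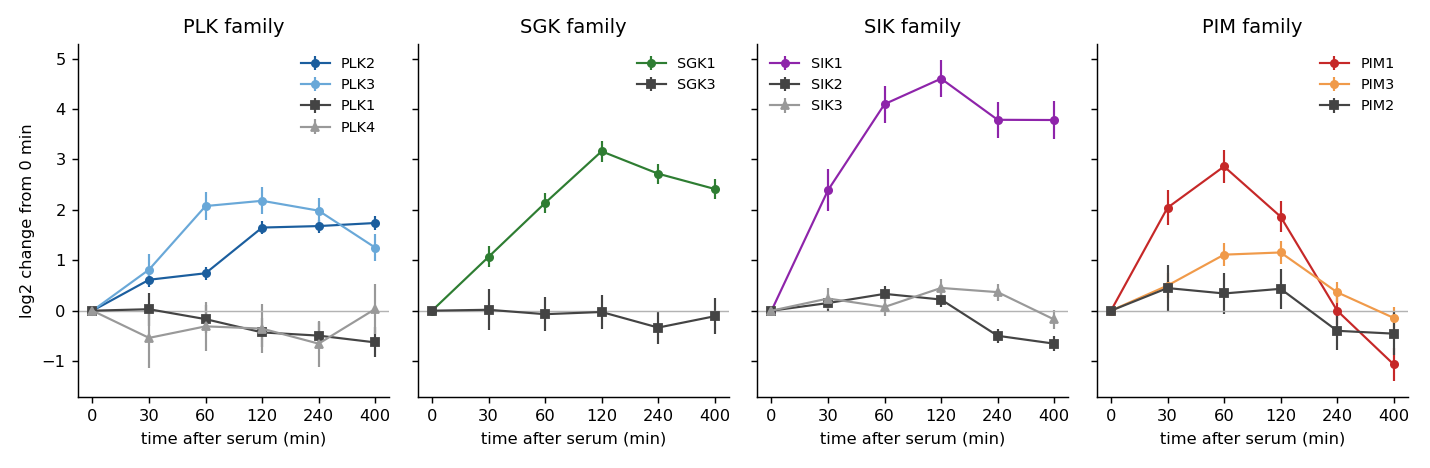
Fitted log2 change from 0 min (vertical axis) at 0, 30, 60, 120, 240 and 400 min (horizontal axis, evenly spaced categories) for the PLK, SGK, SIK and PIM families, with bars of 2 standard errors and SGK2 left out for its low counts. Coloured lines are the 6 kinases and grey lines their paralogs, which lie between −0.65 and 0.45 where called. ENSG00000275993.2, whose counts follow those of SIK1, is not drawn.

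Of 18 other kinases and pseudokinases known to be inducible, 11 had risen and none had fallen by 60 min (5.15% and 1.23% of all genes), and by 400 min 10 had risen and 3 had fallen (24.2% and 22.4%). Their median log2 change was 0.61 at 60 min. NUAK2, another kinase activated by LKB1, had a change of 4.71 ± 0.20 at 60 min and 4.07 ± 0.20 at 400 min. MAP2K3, which activates p38, was 2.71 higher at 60 min and 2.32 higher at 400 min. The pseudokinase TRIB1 was 2.81 higher at 30 min and 0.47 higher at 400 min, and STK38L was first called at 120 min (1.86).

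Of 15 genes of the LKB1, SIK and CRTC pathway, which lie upstream and downstream of SIK1, 1 had risen by 60 min, and by 400 min 3 had risen and 4 had fallen, near the 24.2% and 22.4% of all genes. At 400 min the class IIa deacetylases HDAC9 and HDAC5 had changes of 2.11 and −0.80, and CAB39, a subunit of the LKB1 complex, of 1.41. CREM, a CREB relative, was 0.58 higher at 60 min. Of 13 activators and targets of SGK1, none was called at 60 min, and by 400 min 4 had risen and 3 had fallen, again near the shares of all genes. NEDD4L and NEDD4 were 1.41 and 1.08 higher at 400 min, while RICTOR, the mTORC2 subunit, and NDRG2 each had a change of −1.19. The glucocorticoid receptor can induce SGK1, and of 8 tested genes of the receptor and its targets 5 were higher at 60 min (5.15% of all genes). DUSP1, a phosphatase of MAP kinases (4.31), PER1 (1.70), KLF9 (1.13) and MT2A (0.59) were among these, and DUSP1 and PER1 also respond to serum. At 400 min 4 of the 8 were higher and 2 lower (24.2% and 22.4% of all genes). The changes then were 2.62 for DUSP1, 2.25 for MT2A and −1.34 for PER1.

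JAK-STAT signalling induces PIM genes. Of 15 genes of that list, 4 had risen by 60 min, and by 400 min 6 had risen and 1 had fallen (24.2% and 22.4% of all genes). SOCS3, a feedback inhibitor and STAT target, was 2.53 higher at 30 min and 2.41 at 60 min, and its change of −0.04 at 120 min was not called. SOCS2 was 1.77 higher at 240 min, IL6R 1.27 higher at 120 min and JAK1 0.99 higher at 400 min. Among 10 PIM substrates, 2 had risen and 1 had fallen by 60 min, and by 400 min 4 had risen and 5 had fallen (24.2% and 22.4% of all genes). At 60 min CDKN1A, encoding p21, had a change of 2.43 and CDKN1B, encoding p27, of −0.68, and CDKN1B was at −2.54 at 400 min. MYC, which PIM kinases phosphorylate, was 2.91 higher at 60 min, and CDC25C had a change of −1.70 at 400 min.

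Among 9 tested regulators and substrates of PLK2 and PLK3 none was called at 60 min, and at 400 min 2 were higher and 5 lower (24.2% and 22.4% of all genes), with changes of 1.35 for HIF1A, −1.31 for TOP2A and −1.03 for CHEK2. Of 15 ERK, RSK and MSK kinases with the factors they act on, 1 had risen by 60 min, and by 400 min 6 had risen and 4 had fallen (24.2% and 22.4% of all genes). SRF, the serum response factor, was the one at 60 min (2.87). At 400 min the changes were 1.28 for RPS6KA3, −1.23 for RPS6KA1 and −2.60 for RPS6KA5. At 60 min 5.15% of all genes were higher, and no list was tested as a set.

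The protein-coding genes with the most similar profiles differed between members. Pearson's r was taken on log2 of the normalised read count plus 1 over the same 41 libraries, among 11144 other genes with a mean of at least 100, and is a description. PIM1 was nearest to FOSB (0.984), EGR3 (0.983) and KDM3A (0.965), and PIM3 to FOXF1 (0.969), FAM43A (0.963) and IRF2BP2 (0.960). SIK1 was nearest to NUAK2 (0.984), MYC (0.959) and CCN1 (0.957), and PLK3 to CDKN1A (0.967), MAFK (0.966) and PPP1R3B (0.962). SGK1 was nearest to RHOB (0.989), DUSP14 (0.983) and ENC1 (0.980), and PLK2 to IL6 (0.962), SAMD4A (0.961) and BEND7 (0.958). Within the group, r was 0.927 between SIK1 and SGK1, 0.921 between PLK3 and SIK1, 0.892 between PIM1 and PIM3, and −0.42 between PLK2 and PIM1. PLK2 and PLK3 gave 0.630, less than either gave with SGK1 (0.881 and 0.902). Many other genes had a higher r with some members. Among the 11144 genes, PIM3 took place 282 for PIM1, and PIM1 place 41 for PIM3. SGK1 took place 370 for PLK2, and PLK2 place 110 for SGK1. SGK1 took place 13 for SIK1, and SIK1 place 39 for SGK1. PLK3 took place 14 for SIK1, and SIK1 place 22 for PLK3.

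Genes annotated within 100 kb of the members' starts were also examined. No gene near PLK2 or SGK1 passed the filter, and of 1 tested gene near SIK1 none was called. Near PIM1, TMEM217, whose start lies 88.0 kb away, was 1.34 higher at 120 min than at 0 min, and PIM1 was 1.87 higher. Their courses differed at other times. At 30 and 60 min TMEM217 was not called (−0.09 and 0.38, edgeR adjusted p = 0.898 and 0.419), whereas PIM1 was 2.04 and 2.86 higher. At 240 min TMEM217 was still called higher (edgeR adjusted p = 0.000235) and PIM1 was not called (edgeR adjusted p = 0.994). Near PIM3, 2 of 5 tested genes were called at 1 or more of the 5 times (53.7% of all genes). Of these, ALG12 had a change of −0.40 and the lncRNA ENSG00000278869 of −2.27 at 400 min. Of 17 tested genes near PLK3, 10 were called at 1 or more of the 5 times, as were 53.7% of all genes. The small nucleolar RNA SNORD38B enters both counts under ENSG00000207421.1 and again, at the same distance, under ENSG00000281859.1. BTBD19, whose start lies 8.15 kb away, had a change of −1.21 and KIF2C of −0.88 at 400 min. At 60 min the change of BTBD19, 0.40 ± 0.11, just missed the threshold (edgeR adjusted p = 0.0106). The small nuclear RNAs RNU5D-1 and RNU5F-1 were 1.21 and 1.33 higher at 30 min. None of these 4 genes was called higher at both 60 and 120 min, as PLK3 was.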

How the data were processed

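T98G libraries of rRNA-depleted, stranded total RNA were analysed at 41 time points, with 1 library each. The authors trimmed reads with cutadapt 1.11, aligned them to GRCh38 with STAR 2.5.2a and deposited counts per gene from featureCounts, by strand, with reads that map to several places or overlap several genes counted for each gene. The deposited normalised signal is that count divided by the DESeq2 1.24.0 size factor of its library, and it was the same as values recomputed here to within 3.89e-15 of their size. Symbols and positions came from a later GENCODE release on GRCh38, with 58207 of 58721 genes matched, and promoters from RefSeq. SIK1 has a near-identical copy, so its counts are uncertain.

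Genes were kept if any library held over 10 counts and 3 consecutive libraries held over 2, and were fitted in edgeR 4.0.16 with a natural cubic spline of time (7 degrees of freedom) and robust quasi-likelihood dispersions, with Benjamini-Hochberg adjustment over 21629 genes. Standard errors measure the spread about the curve, which may be technical. The fit was tested on simulated data. Midpoints used a running mean of 3 libraries.

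The members and the 9 gene lists were chosen with earlier results of these data known. Named genes were the members, up to 4 per list with the largest called change and a mean of at least 50, the 3 most alike genes per member, and called neighbours within 100 kb. Alternatives changed the normalization, filter, spline, libraries, threshold and test (DESeq2 1.42.0). Some of the genes near PLK3 are not reported here.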

Additional observations from a re-analysis of the deposited data

How the results depend on the processing

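Each fitted change of the members was recomputed under 17 alternatives. Of 918 values for 54 changes, 891 kept both direction and side of the threshold. With spike-in size factors 2 members (PIM1 and SIK1) were higher at 30 min, against 5, and PLK2 was also not called at 60 min (0.50, adjusted p = 0.256). Without the 0 min library the count of members lower at 400 min was 0, since PIM1 gave 0.0351 in log2 (0.04 when rounded), and the changes of SIK1 at 60 min and SGK1 at 60 min became 5.70 and 3.12. In this fit the curve is extrapolated to 0 min. It also lost the calls of PLK3 at 30 min (1.63, adjusted p = 0.0209) and PIM3 at 240 min, which 5 and 9 degrees of freedom also lost (0.25 and 0.31). PIM3 at 30 min passed the threshold with DESeq2 (0.50, adjusted p = 0.00365), evenly spaced knots (0.63), 9 degrees of freedom, an adjusted p below 0.05 and without the 20 min library, the 300 min library or the 4 farthest libraries. The share of all genes called higher at 60 min ran from 1.40% without the 0 min library to 7.62% among genes with a mean of at least 50.

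The apparent half-life of SIK1 was 368 min over all libraries after the maximum and 158 min over the first 100 min, and that of SGK1 was 300.3 and 145 min, so neither is described by a single slope. On z-scores of the normalised read count none of the 3 genes most alike to PLK2 or PIM1 stayed the same. With 1 library per time point, differences between cultures cannot be told apart from differences between times. No paired analysis was possible because each time point is a single, separately seeded culture.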
